A study of Mus musculus with 4 samples.

Results

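The 10 genes described here are markers of complement and of myeloid cells: C1qa, C1qb, C1qc, C3, C4b, Serping1, Tyrobp, Csf1r, Lyz2 and Ptprc. They were taken by symbol from the 32285 genes in the count matrices, and all 10 were found, each under 1 gene identifier. The data are Visium spatial transcriptomics, in which a tissue section lies on a grid of barcoded spots and each spot reports the RNA of the small patch above it. A spot can hold several cells, so no value here belongs to a cell type. Sections of fresh-frozen posterior eyes of C57BL/6J mice were placed on 4 capture frames, each labelled as a separate biological replicate. All 4 frames carry the treatment label Naive+AAV2/2. The series' design text names control retinas and retinas at a pair of times after a virus overexpressing Wif1 under the CMV promoter, but the labels do not say which frame would be which. So no comparison of treatments was made, and every comparison is between groups of spots within frames, with the frame as the replicate. The control virus named there carries CMV-IRES-GFP. No source used here gives age, sex or the number of animals per frame, so the p-values measure the spread between frames, which may be technical. The labels name the molecule nuclear RNA.

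The frames held 4603 spots over tissue in all, with 1056 to 1243 spots and 674029 to 1066633 unique molecular identifiers (UMIs, each a counted RNA molecule) per frame. Median depth was low, at 430 to 630.5 UMIs per spot. Spots were grouped into regions by a panel of 136 genes that holds none of the 10. The label reads retina, yet along with photoreceptor (983 spots), inner nuclear (299) and ganglion (592) regions there were pigmented (500), skeletal muscle (107), myelin (79) and keratin epithelium (73) regions. A further 213 spots fell in a pair of unnamed clusters, the larger of them (189 spots) led by the collagen genes Col1a1 and Col1a2 together with photoreceptor genes. Another 1757 spots held under 20 panel UMIs and were not placed. Myelin spots numbered 0 in frame 1, then 14, 28 and 37. A barcode marks a grid position, and 518, 632 and 121 barcodes occurred in 2, 3 and 4 frames.

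Complement is a cascade of blood and tissue proteins that tags cells, synapses and debris for removal. C1q, built from the products of C1qa, C1qb and C1qc, starts the classical pathway and in the nervous system is made mostly by microglia and macrophages. C4b and C3 encode the next components, which can be made by glia, epithelia and stromal cells, and Serping1 encodes the inhibitor of the C1 proteases. Tyrobp encodes an adaptor of myeloid receptors, Csf1r the receptor for colony stimulating factor 1, Lyz2 a lysozyme of macrophages and granulocytes, and Ptprc the leukocyte surface protein CD45. In the retina and optic nerve, complement genes are widely used as markers of glial reaction in glaucoma models.

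The C1q genes lie side by side on chromosome 4 in the GRCm38.p6 assembly, C1qb at chr4:136880126-136886200, C1qc at chr4:136889801-136892936 and C1qa at chr4:136895916-136898844. C3 lies at chr17:57203967-57228136. Promoter windows of 300 bases around the transcription start were held for C1qb, C1qc, C3, Lyz2 and Ptprc in the RefSeq promoter table of that build, not for C1qa, C4b, Serping1, Tyrobp or Csf1r. The windows of C1qb and C1qc, neighbours on the chromosome whose products join in C1q, and of C3 are shown 5′ to 3′, all from the minus strand, at chr4:136886151-136886450, chr4:136892865-136893164 and chr17:57228087-57228386. Capitals mark the letters GAGGAA on either strand, the core bound by the myeloid factor PU.1.
C1qb: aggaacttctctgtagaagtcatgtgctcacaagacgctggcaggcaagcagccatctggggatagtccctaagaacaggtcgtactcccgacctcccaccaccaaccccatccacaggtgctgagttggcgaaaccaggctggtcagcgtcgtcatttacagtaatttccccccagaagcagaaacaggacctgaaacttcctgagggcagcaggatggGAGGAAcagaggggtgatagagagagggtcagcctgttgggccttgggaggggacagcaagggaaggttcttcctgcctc
C1qc: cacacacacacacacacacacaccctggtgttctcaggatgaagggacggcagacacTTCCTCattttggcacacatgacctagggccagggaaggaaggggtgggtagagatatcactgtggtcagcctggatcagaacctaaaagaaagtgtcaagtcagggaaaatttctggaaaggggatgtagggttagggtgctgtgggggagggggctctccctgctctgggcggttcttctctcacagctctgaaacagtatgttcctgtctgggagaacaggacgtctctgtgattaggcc
C3: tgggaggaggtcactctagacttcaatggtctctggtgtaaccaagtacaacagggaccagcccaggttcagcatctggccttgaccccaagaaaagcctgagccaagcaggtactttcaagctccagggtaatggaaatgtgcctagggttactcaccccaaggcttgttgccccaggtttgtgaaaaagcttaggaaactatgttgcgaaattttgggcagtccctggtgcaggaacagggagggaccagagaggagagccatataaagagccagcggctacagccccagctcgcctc
The core occurred 1 time in the C1qb window, 1 time in the C1qc window and 0 times in that of C3. Of the other members with windows, Lyz2 held it 0 times, and Ptprc held it 1 time in window 1 and 0 times in window 2. An interferon element was searched for as well, with 0 matches in each of these windows and a match in 3.44% of all windows. The PU.1 core occurred in 28.3% of all 32851 promoter windows, so a match is common. These are matches of letters and not measured binding.

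Each gene was present in every frame, and the levels differed in how far they spread. C3 stood at 1017, 912, 879 and 839.7 CPM (UMIs of the gene per 1000000 UMIs of the frame) in frames 1 to 4, a mean of 911.9 ± 76.0 (SD, n = 4). Its highest frame was 1.21 times its lowest. Tyrobp varied as little, at 123, 128, 129 and 111 CPM. Ptprc was at 300.3, 329, 181 and 276 CPM, with frame 3 lowest. Lyz2 was at 116, 118, 161 and 86.0 CPM. The C1q genes were sparse: C1qa had 57, 52, 29 and 20 UMIs, or 63.6, 48.8, 32.8 and 29.7 CPM. C1qb had 38.0, 39.4, 33.9 and 28.2 CPM and C1qc 26.8, 22.5, 24.8 and 40.1 CPM, so the order of the frames was not shared by the C1q genes. C4b was at 29.0, 39.4, 41.8 and 40.1 CPM. Serping1 was at 67.0, 58.1, 61.0 and 31.2 CPM, lowest in frame 4. Csf1r had 86 UMIs in all, at 21.2, 33.8, 19.2 and 20.8 CPM. Reads from C4b and its close copy C4a, or from Lyz2 and its close copy Lyz1, could be divided by the counting, so these levels are uncertain to that extent.

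**Figure D1:**
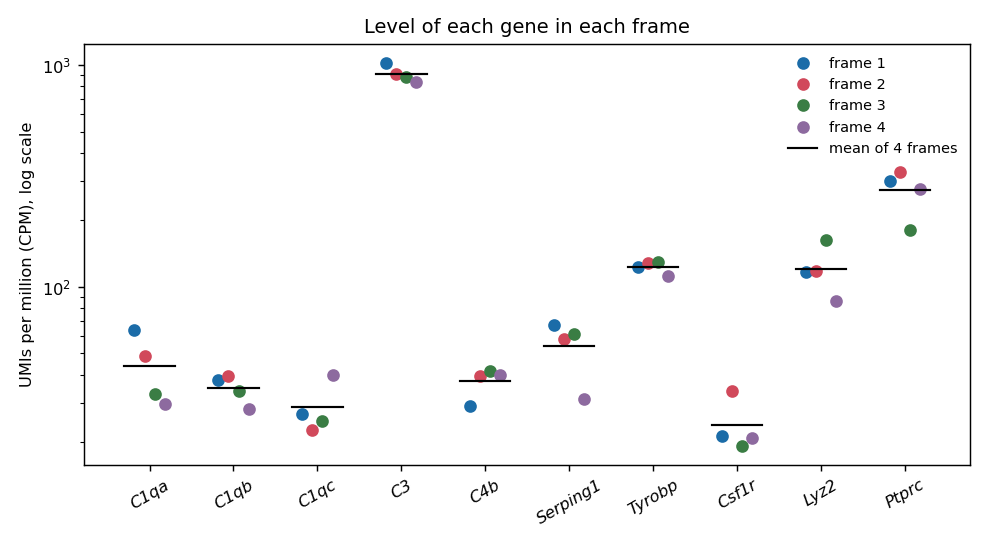
Level of each of the 10 genes (CPM, log axis) in the 4 frames, with a line at the mean. C3 lies between 839.7 and 1017 CPM in all 4 frames, while C1qa spans 29.7 to 63.6 CPM.

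The UMIs were concentrated in few spots. The 46 spots (1%) with most C3 held 51.6% of its UMIs, with up to 122 in a spot, although C3 was found in 741 spots (16.1%, 95% interval 15.05% to 17.2%, exact binomial, counting error only). For Ptprc the same number of spots held 40.9% of the UMIs, with up to 36 in a spot. C1qa, with at most 13 UMIs in a spot, was found in 118 spots (2.56%, 95% interval 2.13% to 3.06%). At least 1 of the 10 genes was present in 29.7% of spots and at least 1 C1q gene in 247 spots. Spots with few panel UMIs carried much of this signal: 41.7% of C3 and 42.5% of Ptprc UMIs came from unplaced spots, against 20.3% of C1qa and 18.8% of Serping1. Of the 10 spots richest in Ptprc, 8 were unplaced.

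Other genes of complement and of leukocytes frame these levels. Among 18 genes of the initiating steps 4 had no UMI, and C1s1, a C1 protease, led with 314 UMIs, followed by the alternative pathway gene Cfb with 111. The terminal components, which form the membrane pore, were at 0 UMIs for 6 of 7 genes, and C8g had 3. Among 16 regulators Clu, which encodes the chaperone clusterin, had 24682 UMIs and Vtn, vitronectin, 1123. Of 8 genes listed as microglial, P2ry12 had 6 UMIs, Cx3cr1 9, Tmem119 23 and Fcrls 42, while Olfml3, a secreted protein gene, had 781, and no spot group is called microglial. Olfml3 was the 1 of the 8 with enough UMIs to be tested, and it rose in the inner retina (log2 0.64 ± 0.28), in the coat (2.05 ± 0.25), in fibrous against pigmented spots (2.21 ± 0.34), and in spots with Serping1 (1.10 ± 0.26) or C3 (0.54 ± 0.18). Olfml3 did not pass in ganglion against inner nuclear spots (-0.65), in myelin spots (0.21) or in spots with C1q (0.44) or Ptprc (0.043). The share of all genes that rose is given with each comparison below. Of monocyte and neutrophil genes, S100a8 had 0 UMIs, S100a9 had 1, Ly6c2 had 104 and Lcn2, also made by reactive glia, 1122. The immunoglobulin gene Igkc had 2598 UMIs.

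By region, C3 was highest in the pigmented, myelin and unplaced spots and lowest in muscle and photoreceptor spots. In the pigmented region it stood at 4216, 1729, 1543 and 751 CPM in frames 1 to 4, all above the photoreceptor values of 259, 108, 439 and 122 CPM. In the unplaced spots it was 2338, 2248, 2735 and 2589 CPM, all above the photoreceptor and muscle values. The myelin region had 1377, 1518 and 1098 CPM in frames 2 to 4. The inner nuclear region had 373, 1070, 260.4 and 376 CPM and the ganglion region 520.1, 521, 319 and 610.1 CPM, and these ranges overlap. A single inner nuclear spot of frame 2 held 80 C3 UMIs.

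The pigmented region joined a pair of unlike clusters, which are described here without a test because they were singled out after their values were seen. The cluster of 257 spots led by the pigment cell genes Tyrp1, Dct and Gpnmb had 5378, 3611, 2469 and 1184 CPM of C3. The cluster of 243 spots led by the pigment epithelium genes Lrat, Rgr and Rpe65 had 130, 124, 194 and 191 CPM, below the former in every frame. Serping1 followed, at 349.9, 218, 206 and 49.3 CPM against 0, 37.1, 35.2 and 0 CPM. C4b had 39 UMIs in the Tyrp1-led and 5 in the Lrat-led spots, Lyz2 112 and 22, and the C1q genes together 72 and 14. The Tyrp1-led cluster also had vessel and connective tissue genes (Vwf, Myh11, Sparc) among its 10 leading genes.

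C4b stood out in the myelin spots, whose leading genes Mobp and Mbp encode myelin proteins. It was at 459, 787 and 439 CPM in frames 2 to 4, from 24 UMIs in 79 spots, against 5.74 ± 6.65 CPM (SD, n = 4) among ganglion spots and 11.6 ± 4.95 CPM among photoreceptor spots. Tyrobp was at 459, 449.9 and 384 CPM there. Ptprc was the reverse, with 1 UMI in the myelin spots and 378 ± 137 CPM in the ganglion region. Csf1r had 0 of 40354 UMIs in the myelin spots, which allows up to 74.3 CPM, above its level in any named region. C1qa had 0 of 67783 UMIs in the keratin epithelium, which allows up to 44.3 CPM, above its mean of 43.7 CPM over the whole frames. In these sections fewer cells of a type and less RNA per cell cannot be told apart.

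**Figure D2:**
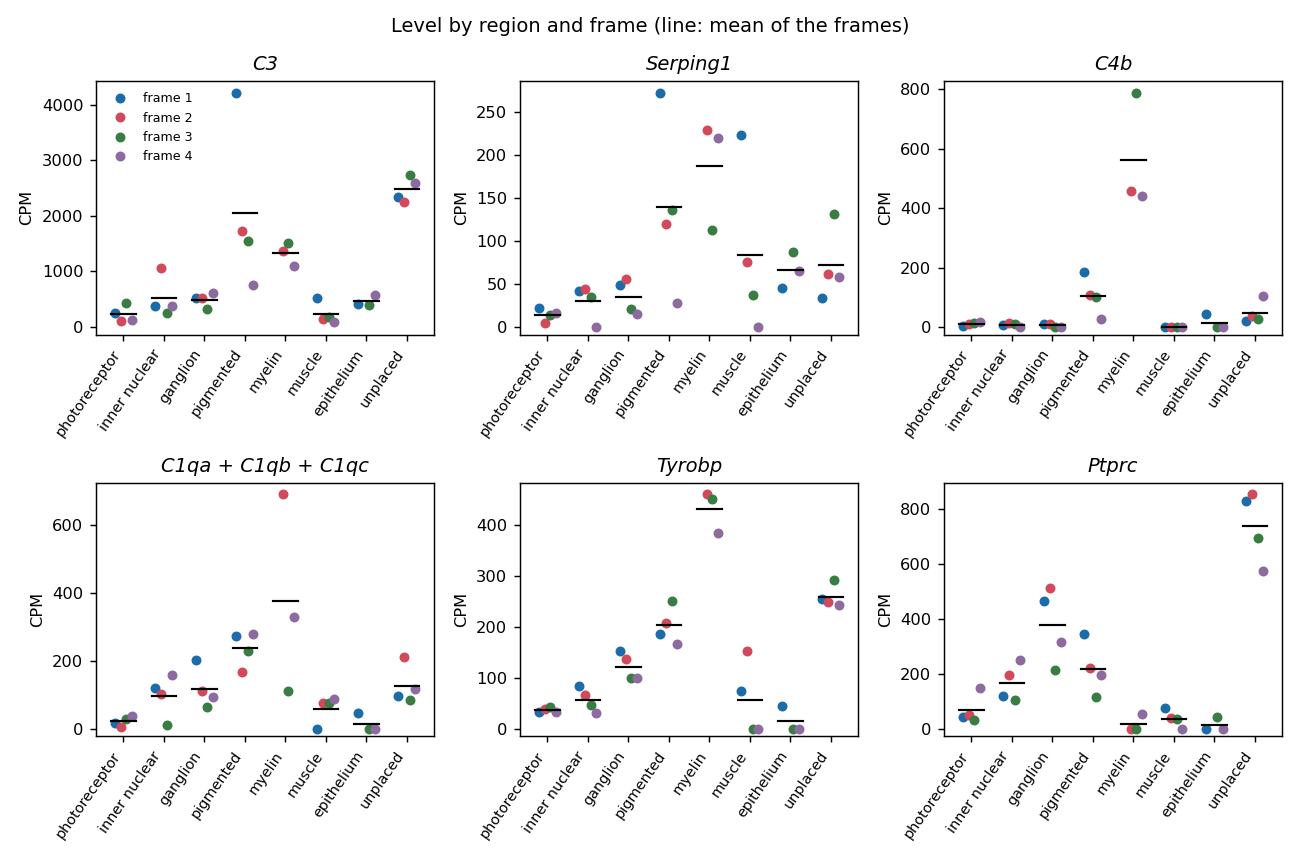
Levels of C3, Serping1, C4b, the C1q genes summed, Tyrobp and Ptprc (CPM) by region, with a point for each frame that had at least 10 spots and a line at their mean. C3 in the pigmented region spans 751 to 4216 CPM, C4b in the myelin region 439 to 787 CPM, and Ptprc in the unplaced spots 574 to 854 CPM.

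In the comparisons that follow, a gene was tested where enough of the frame sums reached a minimum level, and a sparse gene could reach it through the side where it was high and so had to differ. Among the complement and myeloid genes described here, those that rose after reaching the minimum in this way are named. Where any of them rose, the count that rose in a fit with no minimum is given as well. That fit tested every gene with a UMI. Counts for other lists of genes, such as interferon response genes, are given with the minimum only. The minimum may therefore have raised the counts for those lists.

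Within the retina, the comparison of the inner retina (inner nuclear plus ganglion regions, 891 spots) with the photoreceptor region (983 spots) asked which of the genes were layered. Only 3 of the 10 genes had enough UMIs to be tested, and 2 rose, Ptprc and Tyrobp, where 887 of 3185 genes tested (27.8%) were higher and 761 (23.9%) lower. Ptprc was at 301, 402, 182 and 308 CPM in the inner retina and 44.02, 48.9, 33.8 and 149 CPM in the photoreceptor region, so the groups did not overlap. Its log2 fold change was 2.01 ± 0.28 (SE, edgeR adjusted p = 1.48e-09). Tyrobp was at 120.3, 111, 83.5 and 89.4 against 33.0, 39.1, 43.5 and 33.2 CPM (log2 1.24 ± 0.37, adjusted p = 0.00278). With regions drawn at Leiden resolution 1 Tyrobp no longer passed (log2 0.33, adjusted p = 0.414), nor with regions from marker sums (log2 0.79, adjusted p = 0.0515). C3 did not pass (log2 1.00 ± 0.65, adjusted p = 0.296) and was lower in the inner retina in frame 3, where the photoreceptor region had 439 CPM. Without frame 3 it did pass (log2 1.67, adjusted p = 9.1e-12), as it did without frame 2 (log2 0.55, adjusted p = 0.0487). Tyrobp reached the minimum in the inner retina sums alone, and Ptprc in those and in 2 photoreceptor sums. With no minimum 6 of the 10 genes rose, where 1531 of 16089 genes (9.52%) were higher.

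The other 7 genes were under the minimum. C1qa had 51 UMIs in the inner retina and 7 in the photoreceptor region, C1qb 51 and 7, C1qc 33 and 3, Csf1r 23 and 4, Lyz2 104 and 20, Serping1 46 and 11, and C4b 9 and 9. With no minimum C1qa (log2 1.88 ± 0.64, edgeR adjusted p = 0.027), C1qb (1.92 ± 0.64, adjusted p = 0.0205), C1qc (2.43 ± 0.88, adjusted p = 0.0402) and Lyz2 (1.40 ± 0.43, adjusted p = 0.0103) passed, and Serping1, Csf1r and C4b did not. C4b was the gene without more UMIs in the inner retina, which held 1234080 UMIs against 774187. Median depth per spot was 1075.5 to 1232 UMIs in the inner retina and 550 to 745 in the photoreceptor region, and its part in the result was not tested. Other leukocyte genes rose as well: the high-affinity IgG receptor gene Fcgr1 by log2 2.85 ± 0.45 (167 and 12 UMIs), and Itgb2, the beta chain of complement receptor 3, by 1.27 ± 0.32. All 3 tested immunoglobulin genes rose, Igkc by 2.77 ± 0.21, as did 6 of 8 tested interferon response genes, Ifit1 by 3.61 ± 0.54. The photoreceptor region held 12 UMIs of Fcgr1, 24 of Igha, 25 of Jchain and 5 of Ifit1. These were too few to reach the minimum there alone, so the inner retina, where they were high, helped these genes into the test. Vtn fell by 2.58 on the log2 scale.

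Between the ganglion and inner nuclear regions, 1 of 4 tested genes rose, where 282 of 2929 genes (9.63%) were higher and 271 (9.25%) lower. Ptprc was higher in the ganglion region, at 465, 513, 215 and 318 CPM against 120.2, 198, 107 and 250.7 CPM (log2 1.26 ± 0.30, edgeR adjusted p = 0.0023). The groups overlapped, and the call ended without frame 1 (log2 0.96, adjusted p = 0.0629), at Leiden resolution 1 (1.14, adjusted p = 0.0842) and with spots of at least 50 panel UMIs (0.70, adjusted p = 0.171). Tyrobp (log2 1.00 ± 0.40, adjusted p = 0.0779), Lyz2 (1.18 ± 0.51, adjusted p = 0.109) and C3 (-0.04 ± 0.25, adjusted p = 0.951) did not pass, though Lyz2 did without frame 3 (1.87, adjusted p = 0.032). The pan-myeloid genes tested, 3 of 18 listed, all rose, Fcgr1 by log2 1.96 ± 0.42, Cd53, a leukocyte tetraspanin, by 1.88 ± 0.51 and Ctss, a lysosomal protease, by 1.56 ± 0.42. They had 18, 15 and 23 UMIs in the inner nuclear region, too few to reach the minimum there alone. The ganglion side, where they were high, thus helped them into the test, and the other listed genes were not tested. The ganglion region itself joined a cluster of 302 spots led by neuronal genes and another of 290 spots, named from 3 of its 10 leading genes (Nefl, Sncg and Nefm), with the amacrine and horizontal cell genes Slc32a1, Tfap2b and Onecut2 and the vessel genes Cdh5, Vwf and Rgs5 beside them. At Leiden resolution 1 a cluster of 224 spots with largely these leading genes stayed unnamed. Ptprc stood at 334, 376, 138 and 201 CPM in the former and 667, 872, 334 and 559 CPM in the latter, higher there in every frame, a description made after the values were seen. With no minimum Ptprc was again the 1 gene of 10 that rose, where 300 of 15390 genes (1.95%) were higher.

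The outer coat was compared with the neural retina, that is the photoreceptor and inner retina spots combined, to set the tissue behind the retina against the retina itself. No fibrous region formed in the main drawing, so the coat was the pigmented region, with 54 to 184 spots a frame. Of the 7 genes tested 6 rose, where 413 of 3874 genes (10.7%) were higher and 328 (8.47%) lower. C3, Lyz2, Tyrobp and Ptprc reached the minimum in the retina as well, C1qa through the coat, and C1qb and Serping1 in 3 coat sums and 1 retinal sum. With no minimum 6 of 10 rose, where 394 of 16520 genes (2.38%) were higher: C4b passed (log2 3.36 ± 0.59, edgeR adjusted p = 1.4e-06), C1qa did (1.63 ± 0.50, adjusted p = 0.0251), and C1qb did not. Serping1 was at 272, 120.2, 136 and 27.8 CPM in the coat and 37.7, 35.6, 20.7 and 14.8 CPM in the retina (log2 2.48 ± 0.43, edgeR adjusted p = 0.000253). It was higher in the coat in 4 of 4 frames, although the coat of frame 4 lay within the range of the retina. C3 rose by log2 2.34 ± 0.32 (adjusted p = 0.000359), with retinal values of 384, 505, 361 and 373 CPM, all below those of the coat. The clusters joined in the coat differed in this. In the Lrat-led cluster described above C3 was below the retinal values in every frame, and in the Tyrp1-led cluster above them in every frame. Serping1 in the Lrat-led cluster was below the retina in frames 1 and 4. These are descriptions made after the values were seen. Lyz2 was at 143, 220.3, 617 and 139 against 102, 55.9, 41.4 and 42.0 CPM (log2 2.33 ± 0.43, adjusted p = 0.000543).

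The C1q genes C1qa and C1qb rose as well, and C1qc was too sparse to test. C1qa was at 158, 66.8, 78.9 and 111 CPM in the coat against 43.3, 28.8, 16.6 and 24.7 in the retina (log2 1.98 ± 0.44, adjusted p = 0.0028). C1qb rose by 1.53 ± 0.49 (adjusted p = 0.0317), a call that ended under DESeq2 (1.46, adjusted p = 0.0789), with no filter (1.19, adjusted p = 0.231), with at least 10 panel UMIs (0.89, adjusted p = 0.226) and without frame 2 (1.57, adjusted p = 0.119) or 3 (1.11, adjusted p = 0.284). Tyrobp was at 186, 207, 251.1 and 167 against 90.4, 86.4, 66.3 and 64.3 CPM (log2 1.59 ± 0.31, adjusted p = 0.000899), and the call ended with at least 50 panel UMIs (1.00, adjusted p = 0.0503). Ptprc did not pass (log2 0.19 ± 0.28, adjusted p = 0.698) and was lower in the coat in 3 of 4 frames. It passed at Leiden resolution 1 (0.76, adjusted p = 0.0316) and with at least 10 panel UMIs (0.99, adjusted p = 0.00185). C4b had 44 UMIs in the coat and 18 in the retina, at 105 ± 64.8 and 8.77 CPM. C1s1 rose by 2.40 ± 0.33 and Clu by 2.08 ± 0.14. None of the 3 tested pan-myeloid genes passed (edgeR, lowest unadjusted p = 0.103): Cd53 stood at 0.82 ± 0.48, Ctss at 0.57 ± 0.40 and Fcgr1 at -0.36 ± 0.47. Interferon response genes rose in 6 of 10, and reactive glia genes in 4 of 8 with 1 lower, led by Serpina3n at 3.20 ± 0.34.

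Since the main drawing formed no fibrous region, the fibrous and pigmented regions were compared as drawn at Leiden resolution 1, where 206 and 390 spots were named so. Other drawings that formed both regions are in the closing section. None of the 3 tested genes passed with edgeR (lowest unadjusted p = 0.32) or DESeq2, where 24 of 832 genes (2.88%) were higher and 54 (6.49%) lower. C3 was at 347, 2436, 1145 and 813 CPM in the fibrous and 4868, 1744, 1566 and 512 CPM in the pigmented region (log2 -0.75 ± 0.96, adjusted p = 0.794), higher in 2 of 4 frames. Lyz2 (-0.51 ± 0.50, adjusted p = 0.668) and Ptprc (-0.27 ± 0.41, adjusted p = 0.822) overlapped as widely. C4b, under the minimum, had 4 of 205732 UMIs in the fibrous and 32 of 294043 in the pigmented spots. With no minimum it did not pass (log2 -2.64 ± 0.88, edgeR adjusted p = 0.238).

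In the myelin region against the neural retina, over frames 2 to 4, C4b and Serping1 were called among 5 tested genes, both having reached the minimum in the myelin sums alone, where 117 of 3063 genes (3.82%) were higher and 123 (4.02%) lower. C4b rose by log2 5.52 ± 0.96 (edgeR adjusted p = 2.13e-06), from 11.9, 8.29 and 7.41 CPM in the retina. Serping1 was at 229, 112 and 219.6 against 35.6, 20.7 and 14.8 CPM (log2 2.68 ± 0.78, adjusted p = 0.0133). The median gene tested stood at -1.15. With no minimum C4b alone rose of the 10 (4.65 ± 0.94, adjusted p = 0.000314), where 52 of 15611 genes (0.333%) were higher. Tyrobp (2.25 ± 0.80, adjusted p = 0.058), C3 (1.33 ± 0.64, adjusted p = 0.185) and Ptprc (-3.27 ± 1.42, adjusted p = 0.139) did not pass, though C3 did without frame 2 (1.59, adjusted p = 0.017). Without frame 4 neither gene passed (C4b log2 5.25, adjusted p = 0.0946; Serping1 1.79, adjusted p = 0.529), and only 5 genes did in all. Without frame 3 Serping1 did not pass (2.75, adjusted p = 0.504), nor with no minimum (1.81, adjusted p = 0.523), and it rests on 7 myelin UMIs. Genes of reactive glia rose in 5 of 8, among them the astrocyte filament gene Gfap by 4.99 ± 0.64 and Vim by 4.39 ± 0.72. The region held 40354 UMIs, with a median depth of 304.5 to 474 UMIs per spot against 723 to 988 in the retina.

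**Figure D3:**
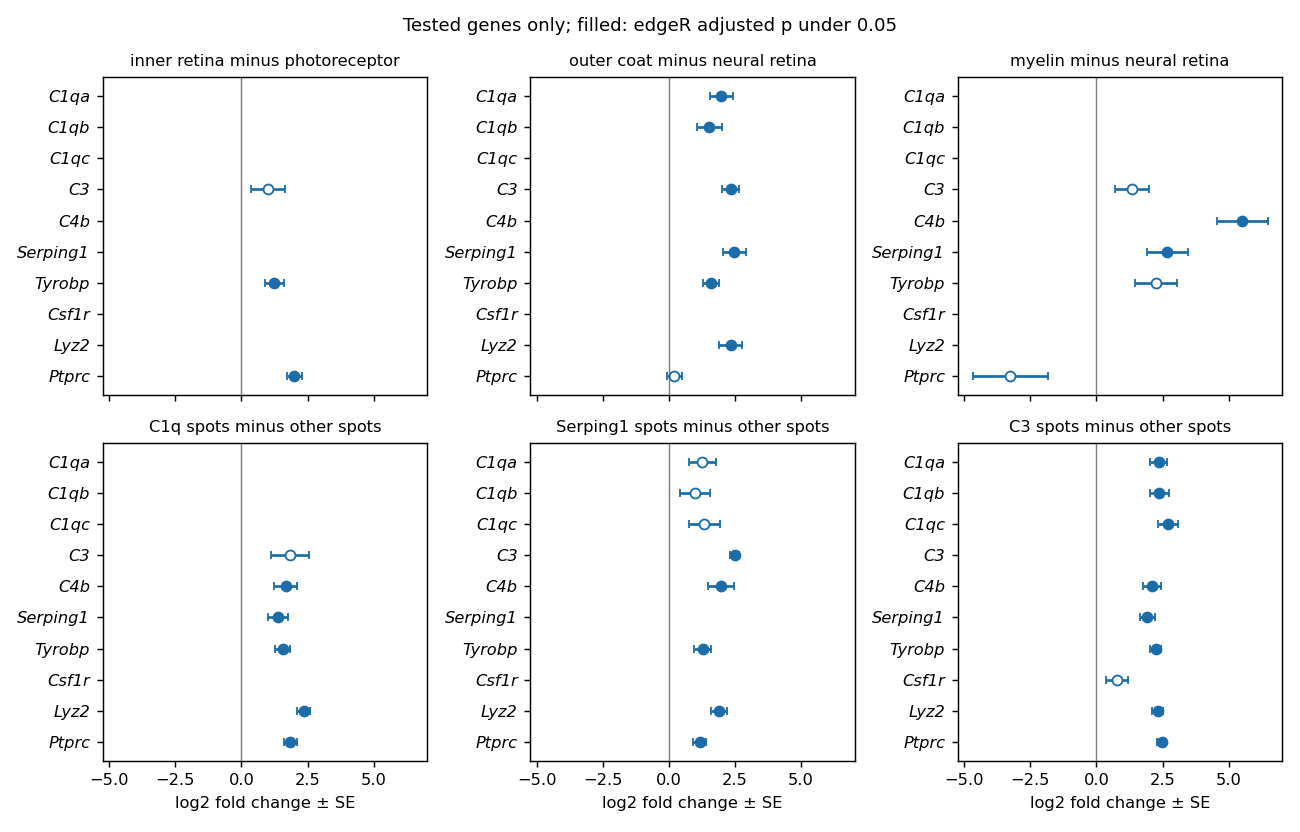
Log2 fold change ± SE of the tested genes in 6 comparisons, with filled points where the edgeR adjusted p was under 0.05. In the coat 6 of 7 tested genes are filled, C4b in the myelin region lies at 5.52, and in the C3 spots all but Csf1r are filled.

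Spots were next split by whether they held a UMI of a given gene. Such spots are deeper, because more UMIs give more chances of detection: median depth by frame was 990 to 1549.5 UMIs in spots with C1q and 411 to 615 in the others. In the 247 spots with C1q, 5 of the 6 tested genes rose, where 197 of 5210 genes (3.78%) were higher and 171 (3.28%) lower. C4b reached the minimum in the C1q spots and in 3 of 4 other sums. With no minimum 4 of 7 rose, Serping1 being lost (adjusted p = 0.0716), where 148 of 17460 genes (0.848%) were higher and 430 lower. Csf1r was under the minimum, with 15 UMIs in the C1q spots and 71 in the others. With no minimum it stood at log2 0.25 ± 0.59 (edgeR adjusted p = 0.908). In spots thinned to 300 UMIs, which evens their depth, 4 genes were higher and 28 lower. Lyz2 was at 346, 477, 718 and 237 CPM against 80.1, 71.1, 94.8 and 69.3 (log2 2.35 ± 0.25, edgeR adjusted p = 4.72e-08). Ptprc was at 1054, 1229, 380.1 and 548 against 182, 211, 157 and 246 CPM (1.85 ± 0.23, adjusted p = 1.92e-06). Tyrobp rose by 1.55 ± 0.28, C4b by 1.67 ± 0.44 and Serping1 by 1.38 ± 0.37. C4b was lower in the C1q spots of frame 4, and C4b and Serping1 did not pass without frame 1 (adjusted p = 0.213 and 0.238) or without frame 2 (adjusted p = 0.108 and 0.142).

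C3 was higher in the C1q spots of every frame, at 4776, 3340, 1130 and 1717 CPM against 427, 594, 849 and 742, yet did not pass (1.84 ± 0.72, adjusted p = 0.324). It passed without frame 1 (1.26, adjusted p = 0.0285), within regions (2.37, adjusted p = 0.000137) and in spots thinned to 300 UMIs (1.56, adjusted p = 0.000263). In thinned spots, where 1623 genes were tested, C3 was the member of the set that passed, and Lyz2 (1.92, adjusted p = 0.118), Tyrobp (1.39, adjusted p = 0.385), Ptprc (1.00, adjusted p = 0.485) and Serping1 (2.20, adjusted p = 0.107) did not. The genes with the largest rise were the macrophage genes Ms4a6c (log2 3.95 ± 0.55) and Ms4a4c (3.63 ± 0.55), Cfb (2.91 ± 0.50), the antigen presentation gene Cd74 (2.85 ± 0.28) and Mndal, Cd53, Tgm2, Apobec3, Aif1 and Cd52. Ms4a6c, Ms4a4c and Cfb had 11, 13 and 50 UMIs in the other spots, too few to reach the minimum there alone. The ranking thus favours genes that were tested because they were high in the C1q spots. The largest falls were in the keratin genes Krt15 (-2.99 ± 0.83) and Krt7 (-2.84 ± 0.53), followed by Lrit1, Myh1 and Arhgef26. Pan-myeloid genes rose in 9 of 11 and interferon response genes in 10 of 12 tested. Of 5 tested plasma cell genes Ighm (2.05 ± 0.48) and Ighg2b (2.08 ± 0.55) rose, each higher in 3 of 4 frames.

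In the spots with Serping1 (152 spots, 18 to 47 a frame) C3 had the lowest p of all genes tested. It was at 3882, 3403, 6305 and 3656 CPM against 746, 703, 548 and 746 CPM in the other spots (log2 2.49 ± 0.18, edgeR adjusted p = 1.33e-40). Of the 8 genes tested 5 rose, where 161 of 5042 genes (3.19%) were higher and 144 (2.86%) lower. C1qc and C4b reached the minimum through the Serping1 spots. With no minimum 2 of 9 rose, C3 and Lyz2, where 55 of 17462 genes (0.315%) were higher and 326 lower, and in thinned spots 2 genes were higher and 40 lower. Csf1r was under the minimum, with 7 UMIs in the Serping1 spots and 79 in the others. With no minimum it stood at log2 -0.28 ± 0.77 (edgeR adjusted p = 0.909). C4b was at 129, 133, 137 and 92.6 against 19.5, 31.5, 35.9 and 38.3 CPM (1.98 ± 0.49, adjusted p = 0.00268), Lyz2 rose by 1.91 ± 0.30, Tyrobp by 1.27 ± 0.32 and Ptprc by 1.17 ± 0.25. The C1q genes did not pass: C1qa stood at 1.26 ± 0.50 (adjusted p = 0.128), C1qc at 1.34 ± 0.59 (adjusted p = 0.18) and C1qb at 0.98 ± 0.58 (adjusted p = 0.404). C3 still passed in thinned spots (1.86, adjusted p = 8.87e-05), while Tyrobp (0.06, adjusted p = 0.989), Ptprc (1.51, adjusted p = 0.273) and Lyz2 (-1.15, adjusted p = 0.804) did not. Without frame 1 the calls of C4b (adjusted p = 0.121), Tyrobp (0.0997) and Ptprc (0.123) ended, and C4b also without frame 2 (0.079).

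The genes with the largest rise beside Serping1 were Cfb (3.24 ± 0.48), the interferon-induced genes Isg15 (3.01 ± 0.53), Ifi47 (2.92 ± 0.53) and Tgtp1 (2.90 ± 0.54), Tnfsf10, the chemokine genes Cxcl10 (2.69 ± 0.46) and Ccl2 (2.64 ± 0.55), Clic1, C3 and Lcn2 (2.40 ± 0.21). Isg15, Ifi47, Tgtp1 and Ccl2 had 54, 52, 29 and 33 UMIs in the other spots, too few to reach the minimum there alone. This ranking too favours genes tested because they were high in the Serping1 spots. Interferon response genes rose in 12 of 13 tested, with B2m, the light chain of class I molecules, at 1.88 ± 0.20. Pan-myeloid genes rose in 4 of 7. Of 4 tested plasma cell genes Ighm rose, higher in 2 of 4 frames. The largest falls were in Clec16a (0 UMIs against 125), Taok3 (1 against 176), Nbas, Wdr78 and Moxd1. The spots with Serping1 had median depths of 952.5 to 1560.5 UMIs against 422 to 617.

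C3 spots were the largest of these groups (741 spots), and 8 of the 9 other genes rose in them, where 424 of 5442 genes (7.79%) were higher and 379 (6.96%) lower. Ptprc, Tyrobp and Lyz2 reached the minimum in the other spots as well, while the C1q genes, C4b and Serping1 did so through the C3 spots. With no minimum 8 of 9 rose again, where 405 of 17462 genes (2.32%) were higher, and the lowest of the 8 was Serping1 at 1.79 ± 0.29 (edgeR adjusted p = 9.71e-08). Ptprc was at 859.9, 879, 440.2 and 782 against 121, 149, 109 and 135 CPM (log2 2.46 ± 0.16, edgeR adjusted p = 1.13e-18). C1qc was at 69.0, 57.1, 83.9 and 129 against 13.3, 11.2, 8.64 and 15.2 CPM (2.70 ± 0.37, adjusted p = 7.53e-08), C1qb rose by 2.38 ± 0.35 and C1qa by 2.35 ± 0.31. Serping1 was at 143, 137, 152 and 74.8 against 42.7, 32.3, 36.0 and 19.0 CPM (1.93 ± 0.28, adjusted p = 3.36e-07). Lyz2 rose by 2.32 ± 0.22, Tyrobp by 2.25 ± 0.20 and C4b by 2.10 ± 0.33. In each fit with a frame left out 8 were called. The genes higher in those fits ran from 294 of 5275 without frame 2 to 377 of 5569 without frame 3. Csf1r did not pass (0.78 ± 0.42, adjusted p = 0.247). In thinned spots 3 genes were tested and passed, Ptprc (2.79), Tyrobp (2.19) and Lyz2 (2.27), and within regions Ptprc, the 1 tested, passed (2.17).

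The genes most raised in C3 spots were Cfb (4.60 ± 0.41, with 99 of 111 UMIs in these spots), Ifi204, Cd69, Ms4a4c, Cxcl10 (3.88 ± 0.36), Ms4a6c, Ly6c2 (3.61 ± 0.41), Lcn2 (3.58 ± 0.16), Mndal and Cd53 (3.34 ± 0.29). Such a ranking favours genes that reached the minimum through the C3 spots. Pan-myeloid genes rose in 10 of 10 tested, interferon response genes in 11 of 12 and reactive glia genes in 7 of 9, with Gfap at 1.60 ± 0.17. None of the 4 tested plasma cell genes passed. The proteases that act with C1q rose, C1s1 by 2.35 ± 0.24 and C1ra by 2.12 ± 0.44. Vtn fell by 1.16 on the log2 scale, and the most lowered were Wdr78, Ppef2, Nol4l, Lars2 and Gm42418, the last with 68233 UMIs in the other spots and 4613 in these, a transcript that overlaps ribosomal RNA sequence. C3 spots had a median depth of 628 to 901.5 UMIs against 402.5 to 607.

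A split by Ptprc, added after the data had been seen, gave 405 spots, with a median depth of 919.5 to 1049 UMIs against 404 to 615 in the others. Of the 9 other genes 6 rose, where 230 of 5373 genes (4.28%) were higher and 245 (4.56%) lower. The C1q genes and C4b reached the minimum through the Ptprc spots. With no minimum 6 of 9 rose, where 211 of 17462 genes (1.21%) were higher. C3 was at 3463, 2683, 2300.3 and 1891 against 567, 512, 674 and 669 CPM (log2 2.02 ± 0.16, edgeR adjusted p = 1.96e-09). C1qa rose by 2.21 ± 0.34, C1qb by 2.14 ± 0.37, C1qc by 2.04 ± 0.40, Tyrobp by 2.10 ± 0.23 and Lyz2 by 1.88 ± 0.22. Serping1 (0.83 ± 0.33, adjusted p = 0.12), C4b (0.78 ± 0.41, adjusted p = 0.274) and Csf1r (0.91 ± 0.49, adjusted p = 0.287) did not pass. Whether Serping1 and C4b differ from the C1q genes in this split was not tested. In thinned spots 53 of 1626 genes tested were higher, and within regions 80 of 975. Fewer of the 9 genes were called in both settings, as given in the closing section. All 11 pan-myeloid genes tested in the main setting rose, of 18 listed. So did 11 of 13 tested interferon response genes and 2 of 5 tested plasma cell genes, Ighg2b and Ighm. The largest rises were in Ms4a4c, Ms4a6c, Cd69, Ly6i, Fcgr4, Fcgr1 (3.35 ± 0.34), AW112010, Ms4a6b, Ly6c2 and Srgn. Here as well the ranking favours genes that reached the minimum through the Ptprc spots. The largest falls were in Fzd10, Myh4, Kdm4c, Heatr5a and Usp6nl.

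Whether C3 and Serping1 follow C1q was asked by their UMI ratio in each region. In the coat log2 of C3 over C1q UMIs, with 0.5 added to each, was 2.85 ± 1.09 (SD, n = 4), and in the neural retina 2.502 ± 0.606. The difference was 0.34 ± 1.36, higher in 2 of 4 frames (exact sign-flip test, two-sided p = 0.75, smallest possible 0.125). It changed sign without frame 1 (-0.26). Serping1 over C1q was -1.002 ± 1.24 in the coat and -1.43 ± 0.61 in the retina, a difference of 0.42 ± 0.89, higher in 3 of 4 frames (exact sign-flip test, p = 0.5). Against Tyrobp, Csf1r and Ptprc in place of C1q the differences were 1.43 ± 0.77 for C3 and 1.51 ± 0.34 for Serping1, both higher in the coat in 4 of 4 frames (exact sign-flip test, p = 0.125, the smallest that 4 frames allow). In the retina that sum was mostly Ptprc, with 431 UMIs against 157 of Tyrobp and 27 of Csf1r. Ptprc did not pass between coat and retina, so these differences largely set C3 and Serping1 against Ptprc. With regions from marker sums the differences were 0.77 ± 1.22 for C3 (3 of 4 frames, p = 0.375) and 0.68 ± 0.61 for Serping1 (4 of 4 frames, p = 0.125, exact sign-flip test). The C1q denominators were small, with 86 C1q UMIs in the coat and 152 in the retina.

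Across regions the ratio of C3 to C1q was largest in the unplaced spots, at 4.33 ± 0.66 on the log2 scale, from 1346 C3 and 73 C1q UMIs. It was 3.27 ± 1.12 in the photoreceptor region, 2.51 ± 1.32 in the inner nuclear region and 2.13 ± 0.56 in the ganglion region, and the frames of these 3 overlap. C1q itself, summed over its 3 genes, was at 272, 167, 230 and 278 CPM in the pigmented region and 16.5, 4.89, 29.0 and 38.7 CPM in the photoreceptor region.

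**Figure D4:**
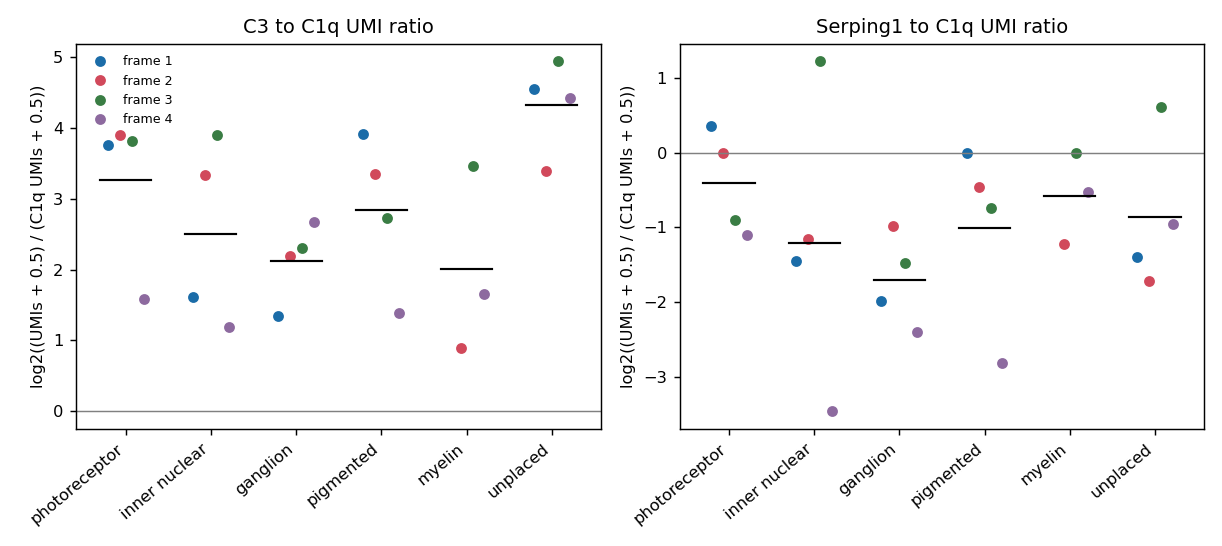
Log2 ratio of C3 (left) and Serping1 (right) UMIs to summed C1q UMIs, with 0.5 added to each, by region and frame, and a line at the mean. The C3 ratio is highest in the unplaced spots, at 4.33 ± 0.66, and the frames of the photoreceptor, inner nuclear and ganglion regions overlap.

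Co-detection over single spots was given without a test, since spots of a frame share a library. Of the 118 spots with C1qa, 21 held C1qb (17.8%, exact 95% interval 11.4% to 25.9%), against 74 of 4485 spots without C1qa (1.65%, 1.30% to 2.07%). C1qc was in 16.1% of C1qa spots and 1.36% of the others. After thinning every spot to 300 UMIs, which left out 1270 shallower spots, 3 of 39 C1qa spots held C1qb (7.69%, interval 1.62% to 20.9%) against 0.486% of the others. C1qb and C1qc were together in 16 spots, but after thinning in 0 of 19 C1qb spots (upper bound 17.6%) and 0 of 27 C1qc spots (upper bound 12.8%), so their co-detection could not be seen at that depth. C3 was in 53.4% of C1qa spots and 15.1% of spots without it, and in 23.1% and 10.0% after thinning, where the lower bound of the former was 11.1%. Read the other way, only 8.50% of C3 spots held C1qa.

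C3 and Serping1 were found together in 75 spots, 49.3% of the Serping1 spots and 10.1% of the C3 spots. After thinning, 17 of 46 Serping1 spots held C3 (37.0%, interval 23.2% to 52.5%) against 9.83% of the others. Of C4b spots 51.6% held C3, and their C3 level was 5574 CPM against 734 CPM in spots without C4b, higher in 3 of 4 frames. Tyrobp was in 27.4% of Ptprc spots and 4.79% of the others, and in 13.5% and 3.29% after thinning. Csf1r was in 3.37% of C3 spots and 1.27% of the others, and in C4b spots it was at 15.1 CPM, from 2 UMIs, against 24.8 CPM. Spots with many of the genes were rare, 28 holding at least 6 of the 10 and none all 10.

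**Figure D5:**
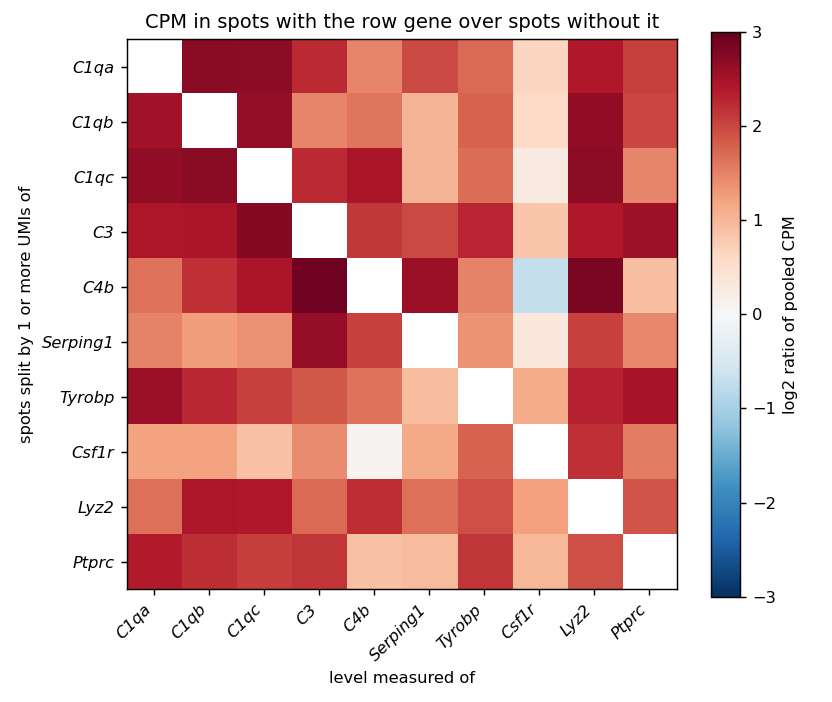
Log2 ratio of pooled CPM of the gene in the column between spots with and spots without a UMI of the gene in the row, not thinned. Nearly all fields are above 0, with C3 7.59 times higher in C4b spots and Csf1r in C4b spots the field below 0, at a ratio of 0.608.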

How the data were processed

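Visium libraries of 4 capture frames, 1 per frame, were used. The deposited matrices hold raw counts, as UMIs per gene and spot, produced by the authors' run of Space Ranger (2.0.0, per the file headers). The submitters' processing notes name mm10. No source used here gives alignment settings. Only spots over tissue entered, and no doublet caller was run.

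Spots with at least 20 UMIs over 136 panel genes in 10 classes were scaled to 10000, log-transformed, standardised (limit 10), reduced to 10 principal components and partitioned (scanpy 1.11.5, 15 neighbours, Leiden, resolution 0.6, default seed). A cluster took the class with most of its 10 leading genes by mean standardised value, at least 3, and stayed unnamed where its first leading gene was of another class. Several seeds and measures of leading were tried, and this combination was settled after clusters and pooled levels of the genes had been seen, before any test. Regions were drawn on the spots that the tests then used.

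UMIs were summed per frame and spot group (at least 10 spots on both sides, at least 3 frames). edgeR 4.0.16 quasi-likelihood fits used TMM, a minimum count of 10, the frame as a block and Benjamini-Hochberg adjustment over all genes tested, called at 0.05. Panel genes, or the genes defining the split, were left out of tests and library sizes. An SE is the log2 fold change over the root of F. The code was tested on simulated data. DESeq2 1.42.0 and the other alternatives are in the closing section. Named genes were the 10 members, up to 3 called genes of lowest p per list, and in spot splits the 10 largest rises and 5 largest falls shared by all frames. The members and 13 lists were chosen with earlier results of these data known. With 4 frames the precision is limited, and intervals cover counting error only.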

Additional observations from a re-analysis of the deposited data

Results flagged for a closer look

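In a search over 59 sets of 4 frame values (levels of the 10 genes and their log2 ratios in each split), 2 held a frame far from the other 3 by Dixon's test, and chance gives about 1 in 20. Csf1r was at 33.8 CPM in frame 2, from 36 UMIs, against 19.2 to 21.2 CPM in the other frames. In the split by Ptprc, the log2 ratio of Tyrobp was 1.24 in frame 3 against 2.21 to 2.34 in the other frames, where Tyrobp was at 279 CPM in the Ptprc spots and 107 CPM in the others.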

How the results depend on the processing

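Counts of called genes are given as genes of the whole table, and members as those of the 10 that rose. Inner retina minus photoreceptor: 6 members with no filter and 1 at Leiden resolution 1 against 2, and 2 to 4 members and 1445 to 1648 genes with a frame left out. Coat minus neural retina: 369 genes and 3 members with at least 50 panel UMIs against 741 and 6, and 4 to 8 members and 506 to 872 genes with a frame left out. Ptprc there turned to -0.16 with no filter and between -0.081 and 0.29 with a frame left out (negative without frame 1). Ganglion minus inner nuclear: 366 genes under DESeq2, 186 at resolution 1, 337 with marker sums and 313 with at least 10 panel UMIs against 553, with 0, 3 and 0 members at resolution 1, at least 10 and at least 50 panel UMIs against 1, and 0 to 2 members and 361 to 473 genes with a frame left out (361 without frame 3). C3 turned there to 0.28 with no filter, 0.044 under DESeq2, 0.58 at resolution 1, 0.42 with marker sums, 0.99 with at least 10 panel UMIs (adjusted p = 0.0208) and ranged from -0.22 to 0.45 with a frame left out (positive without frame 2). Fibrous minus pigmented: 17 genes with marker sums and 20 with at least 10 panel UMIs against 78, 38 to 80 with a frame left out (38 and 42 without frames 1 and 3), and 0 members throughout. C3 turned to 0.064 with marker sums and ranged from -1.32 to 0.15 with a frame left out (positive without frame 1), Lyz2 to 0.70 with at least 50 panel UMIs and Ptprc ranged from -0.47 to 0.080 (positive without frame 1). Myelin minus neural retina: 1 member with no filter, 675 genes and 4 members without the replicate block and 388 genes under DESeq2 (31.2% of them higher, against 48.8% of 240 in the main setting), and 0 to 3 members and 5 to 310 genes with a frame left out (23 and 5 without frames 3 and 4). Ptprc turned to 0.52 with marker sums. No myelin region formed with at least 50 panel UMIs. C1q spots: 578 genes with no filter, 245 under DESeq2, 115 within regions and 32 in thinned spots against 368, with 2 and 1 members in the latter pair against 5, and 174 to 415 genes (174 without frame 1, 192 without frame 2) and 3 to 5 members with a frame left out. Serping1 spots: 2 members with no filter, 168 genes under DESeq2 (76.2% higher, against 52.8%), 42 genes and 1 member in thinned spots against 305 and 5, and 126 to 253 genes (126, 167 and 180 without frames 1, 2 and 3) and 2 to 5 members with a frame left out. Lyz2 turned to -1.15 in thinned spots, and the fit within regions had too few spots. C3 spots: 486 genes under DESeq2, 180 within regions and 232 in thinned spots against 803, with 1 and 3 members in the latter pair against 8, and 507 to 680 genes (507 without frame 2) and 8 members with a frame left out. Ptprc spots: 272, 177 and 97 genes in the same settings against 475, with 2 and 3 members in the latter pair against 6, and 235 to 556 genes (293 without frame 1, 235 without frame 2) and 6 members with a frame left out. The share of calls that were higher moved by over 10 points in further settings. With no filter it was 25.6% against 53.5% in C1q spots, 14.4% in Serping1 spots, 33.3% against 48.4% in Ptprc spots, 19.1% in the myelin region, 40.4% against 55.7% in the coat, 67.0% against 51.0% for ganglion, 63.9% against 53.8% for the inner retina and 16.3% against 30.8% for fibrous. In thinned spots it was 12.5% for C1q, 4.76% for Serping1 and 63.4% against 52.8% for C3, and 40.6% for C3 within regions. Without the replicate block it was 28.6% and with marker sums 68.3% in the myelin region, and 11.8% with marker sums and 17.5% with at least 50 panel UMIs for fibrous. With no filter the median over all genes ran from -2.47 (myelin) to 0.35 (inner retina). Within regions and in thinned spots fewer genes were tested (712 to 1885). The cause of other moves was not tested. The difference in the C3 to C1q ratio ranged from -0.26 to 0.77 and that of Serping1 from 0.04 to 0.76 with a frame left out. Of single members' fold changes, 182 of 205 values with a frame left out and 207 of 250 in the other settings kept direction and call. The frames carry no pairing other than that both spot groups come from the same frame. No alternative adds depth: a gene under about 100 UMIs, such as Csf1r or C1qc, could be tested in few comparisons.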
